A study of Mus musculus with 4 samples.

Results

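The secreted matrix metalloproteinases (MMPs) and the tissue inhibitors of metalloproteinases (TIMPs) described here are Mmp3, Mmp8, Mmp9, Mmp11, Mmp12, Mmp19, Mmp23, Timp1, Timp3 and Timp4. They were chosen by name among array rows whose platform annotation gives 1 gene symbol, and where a gene had several rows the brightest on average was taken. All 10 were found, of 22180 genes named in this way. RNA came from cultured smooth muscle cells of the mouse thoracic aorta (VSMCs), the cells that contract the vessel wall, grown for 5 days after the adventitia had been stripped. The control group (2 arrays) was SM22α-Cre(−) Mmp14(fl/fl) Apoe(−/−), and the knockout group (2 arrays) was SM22α-Cre(+) Mmp14(fl/fl) Apoe(−/−). Both groups therefore lacked Apoe, a lipoprotein carrier, and carried floxed alleles of Mmp14, which encodes the membrane-anchored protease MT1-MMP, and every mouse was on a Western diet for 3 months. Cre was driven by the SM22α promoter, which is active in smooth muscle, so Mmp14 was targeted in those cells and not in every cell of the aorta. The age of the mice is not given in the sources used here. The study asked which transcripts depend on MT1-MMP in Apoe-null VSMCs.

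MMPs are zinc-dependent proteases made as inactive proenzymes, and between them they cut collagens, elastin, proteoglycans and other matrix proteins. TIMPs bind the active site of MMPs and block it. In the atherosclerotic wall both families are known from smooth muscle cells and macrophages, and their balance is linked to matrix turnover in plaques.

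No member passed the test of knockout against control cultures over all genes, and for 8 of 10 the wider of the within-group gaps was larger than the difference between the group means. Mmp12, Mmp19 and Mmp8 had higher means in the knockouts, by 0.58, 0.55 and 0.96 on the log2 scale. In each of the 3 the excess over the control mean lay in 1 of the 2 knockout arrays. Mmp11 had the lower values in both knockout arrays, Mmp3 had nearly equal means with a wide spread, and Timp1 and Timp4 were nearly level. The TIMP inhibitors all had slightly lower means in the knockouts (3 of 3), and of the MMPs 4 of 7 were higher and 3 lower. Among all tested genes 58.3% had a lower mean in the knockouts.

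Mmp3, Mmp8 and Mmp12 are neighbours in a cluster of MMP genes on chromosome 9. The bases before their start sites are shown because these genes varied widely between arrays of 1 group, and those of Timp1 because it varied little in any array. The sequences are from RefSeq (GRCm38.p6), are the 250 bases upstream of the annotated start read 5′ to 3′, and have the AP-1 motif in capitals. AP-1, a dimer of Fos and Jun proteins, is a known inducer of several MMP genes.

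Mmp3, chr9:7445572-7445821, plus strand: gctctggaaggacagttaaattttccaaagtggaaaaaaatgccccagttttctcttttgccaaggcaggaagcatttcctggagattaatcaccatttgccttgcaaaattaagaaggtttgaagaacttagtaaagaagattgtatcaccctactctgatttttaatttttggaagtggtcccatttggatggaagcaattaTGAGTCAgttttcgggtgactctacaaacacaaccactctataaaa
Mmp12, the second of 2 starts, chr9:7347124-7347373, plus strand: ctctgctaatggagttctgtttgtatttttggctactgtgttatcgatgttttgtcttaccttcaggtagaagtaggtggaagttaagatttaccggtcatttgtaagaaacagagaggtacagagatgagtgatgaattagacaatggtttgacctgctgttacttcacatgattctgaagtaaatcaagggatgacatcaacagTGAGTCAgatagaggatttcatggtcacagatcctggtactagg
Mmp8, chr9:7558179-7558428, plus strand: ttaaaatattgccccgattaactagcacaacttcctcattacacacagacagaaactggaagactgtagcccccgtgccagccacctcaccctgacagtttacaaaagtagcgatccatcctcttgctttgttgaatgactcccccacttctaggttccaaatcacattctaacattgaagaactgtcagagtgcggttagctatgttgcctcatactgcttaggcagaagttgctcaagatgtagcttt
Timp1, chrX:20869916-20870165, plus strand: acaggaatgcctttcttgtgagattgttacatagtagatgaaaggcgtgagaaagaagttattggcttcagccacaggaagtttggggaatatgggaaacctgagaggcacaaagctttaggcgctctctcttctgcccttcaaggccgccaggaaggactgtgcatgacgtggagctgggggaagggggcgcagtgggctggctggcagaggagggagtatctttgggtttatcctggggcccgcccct

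The AP-1 motif was searched as TGAGTCA on both strands. It was present once before Mmp3, 46 to 40 bases upstream of the start, and once before the second start of Mmp12, 44 to 38 bases upstream. It was not in the windows of the first Mmp12 start, Mmp8, Mmp11, Mmp23, Timp1, Timp3 or Timp4. Of all 32851 windows of this length, 4.46% held it. A motif of Ets factors, AGGAAG, searched on both strands and sharing no bases with the AP-1 matches, was found before Mmp3, Mmp8, the first start of Mmp12, Timp1, Timp3 and Timp4, with 2 matches at Timp1, and 29.5% of all windows held it. A match describes letters in the window and is not a measured binding site. The table held entries for 8 of the 10 genes, and Mmp9 and Mmp19 are named only.

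Each array gave log2 values for 41345 rows, with array medians of 3.01 to 3.05. Genes with a mean of at least 3.02, the median of all row means, were tested, 12550 in number. Mmp9 and Timp4 lay below that level, so 8 members were tested, and the values of the other 2 come from the fit without the filter. Mmp8 was above the filter level in all 4 arrays. No background or detection level was derived here from these arrays. In the limma fit over these 12550 genes, 0 were called (0%) at an adjusted p threshold of 0.05, and 1465 (11.7%) had an unadjusted p under 0.05. With 2 arrays against 2, the smallest p of a two-sided exact permutation test is 0.333. Mmp14 read 8.71 and 9.05 in the controls against 8.27 and 8.19 in the knockouts, and since its row can include probes outside the floxed exons, it checks the labels only in part. All 12 smooth muscle markers were above the filter level, among them Acta2, Tagln and Cnn1.

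**Figure D1:**
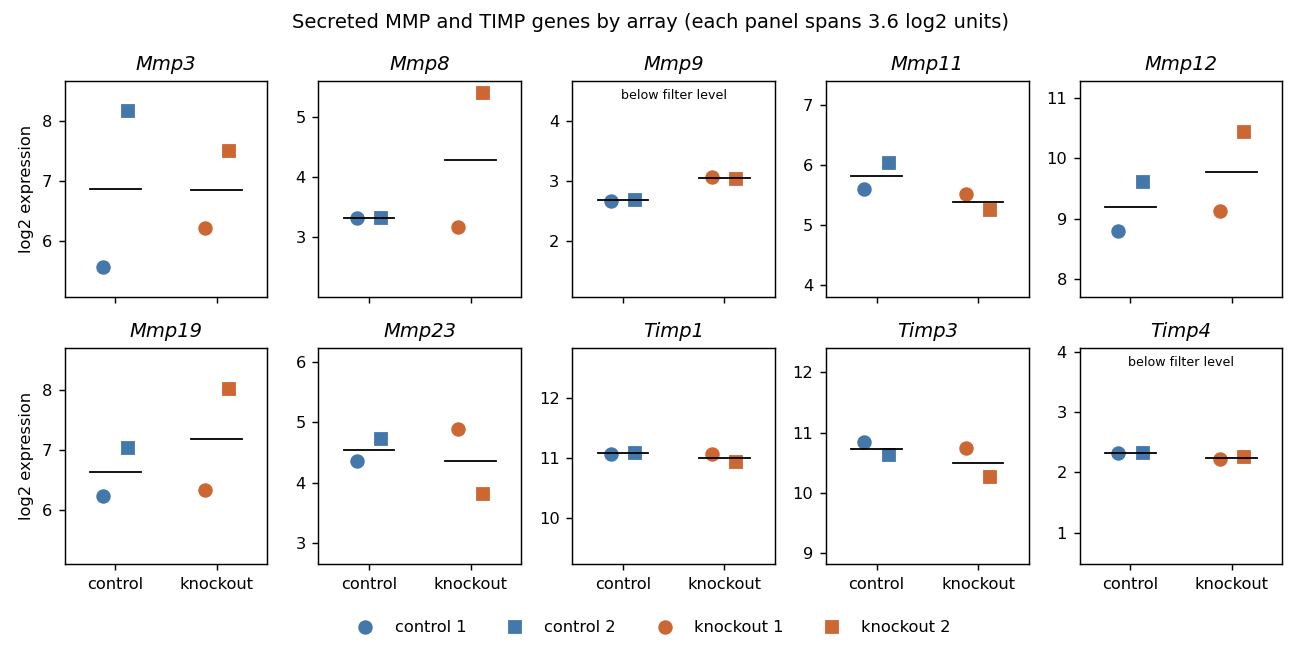
Log2 expression of each gene in the 2 control and 2 knockout arrays, with a line at each group mean and the same 3.6-unit height in every panel. Mmp3 was spread from 5.57 to 8.17 in the controls alone, Mmp8 was high in knockout array 2, and Timp1 stayed between 10.93 and 11.08.

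Among the stromelysins, proteases that cleave proteoglycans and fibronectin, Mmp3 (NCBI gene 17392), which can also activate other proMMPs, read 5.57 and 8.17 in the controls against 6.22 and 7.50 in the knockouts. Both knockout values lay between the control values. The group means were 6.87 ± 1.84 and 6.86 ± 0.91 (SD, n = 2 each), which gave a log2 difference of -0.01 (SE 0.95, 95% interval -2.50 to 2.48; limma, adjusted p = 0.998). The gap of 2.60 between the control arrays, a 6.08-fold ratio, was exceeded by 12 of the 12550 tested genes. The interval of the difference reaches from 0.176-fold to 5.56-fold. The sign turned without control replicate 2 (1.29) or without knockout replicate 1 (0.63), and leaving out control replicate 1 gave -1.32.

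Mmp11 (NCBI gene 17385), stromelysin-3, which furin-type proteases activate before secretion, read 5.60 and 6.03 in the controls against 5.52 and 5.25 in the knockouts. Both knockout arrays lay below both controls, by 0.08 at the closest. The means were 5.81 ± 0.31 and 5.39 ± 0.19 (SD, n = 2 each), which gave a difference of -0.43 (SE 0.21, 95% interval -0.98 to 0.13; limma, adjusted p = 0.512). The difference stayed negative in all 11 refits, from -0.65 to -0.21. A second row of Mmp11 that was not used read 3.20 and 3.26 in the controls against 3.19 and 3.19 in the knockouts, with the same order of groups.

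Mmp12 (NCBI gene 17381), macrophage elastase, read 8.79 and 9.61 in the controls against 9.13 and 10.43 in the knockouts. Knockout array 2 was the highest of the 4, and knockout array 1 lay between the controls. The means were 9.20 ± 0.58 and 9.78 ± 0.92 (SD, n = 2 each), which gave a difference of 0.58 or 1.49-fold (SE 0.52, 95% interval -0.77 to 1.93; limma, adjusted p = 0.714). Leaving out knockout replicate 2 gave -0.07, and leaving out knockout replicate 1 gave 1.23. As a ratio the interval runs from 0.585-fold to 3.82-fold.

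Mmp19 (NCBI gene 58223), a secreted MMP that cleaves basement membrane proteins, followed a similar order. It read 6.22 and 7.03 in the controls against 6.33 and 8.02 in the knockouts, with knockout array 2 highest and knockout array 1 between the controls. The difference was 0.55 (SE 0.62, 95% interval -1.08 to 2.17; limma, adjusted p = 0.775). It was -0.29 without knockout replicate 2 and 1.39 without knockout replicate 1.

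Mmp12 and Mmp19 were above both controls in knockout array 2 alone, and macrophage markers were read in the same arrays. Their sum was higher in both knockout arrays, but a sum does not show how single markers differed between those arrays. Of the 15 markers on the list 15 had higher means in the knockouts, 0 passed the limma test, and for 14 the groups did not overlap, against 16.7% of all tested genes apart with the knockouts higher. Their summed log2 values were 102.0 and 102.2 in the controls against 119.0 and 122.9 in the knockouts, with a median difference of 1.42. None of the 15 was below the filter level in any array, and the lowest value was 4.56 (Fcgr1, a receptor for antibodies, in control array 1). Between the knockout arrays, where Mmp12 differed 2.48-fold and Mmp19 3.22-fold, 10 of the 15 markers were higher in array 2, and Adgre1, Fcgr1, Cd14, Csf1r and Cx3cr1 were lower. The widest gaps were those of Itgam, an integrin of myeloid cells, at 6.41 and 8.02, and of Mertk, a receptor for dying cells, at 5.95 and 7.26. The part of macrophage transcripts in the Mmp12 and Mmp19 values was not tested. In these bulk cultures a change in the number of cells of a type and a change in RNA per cell cannot be told apart.

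Mmp8 (NCBI gene 17394), the collagenase of neutrophil granules, read 3.32 and 3.32 in the controls, 3.16 in knockout array 1 and 5.40 in knockout array 2. A single array held the signal, 4.71-fold above the other knockout, and the remaining 3 arrays lay within 0.16 of each other, close to the filter level of 3.02. The difference of 0.96 (SE 0.74, 95% interval -0.97 to 2.89; limma, adjusted p = 0.662) was -0.16 without knockout replicate 2. Of all tested genes, 39 had a wider gap between the knockout arrays. Neutrophil markers were mostly dim: 9 of 12 lay below the filter level, including Elane, Mpo, Ngp, Camp and Ltf. That level is not a detection level. Their summed log2 values were 34.8 and 34.9 in the controls, 35.1 in knockout array 1 and 37.2 in knockout array 2. The list did not rise as a whole: S100a8 and Retnlg had the largest rises between the knockout arrays, and other markers fell. Of the 3 tested markers, 2 were higher in knockout array 2 than in array 1. S100a8, a calcium-binding protein of neutrophils and monocytes, read 4.96 and 5.43 in the controls against 4.72 and 6.67 in the knockouts. Retnlg, below the filter level, read 2.18 and 2.32 against 2.29 and 3.43. S100a9, the usual partner of S100a8 and also below the filter level, read 2.16 to 2.45 in all 4 arrays. Csf3r, a cytokine receptor of neutrophils, and Ly6g, below the filter level, went the other way between the knockouts, at 3.72 and 3.23 and at 3.13 and 2.30. These 5 markers were chosen after their values were seen, and their part in the Mmp8 value was not tested.

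Mmp9 (NCBI gene 17395), gelatinase B, which cuts denatured collagen and basement membrane collagen, was dim in every array. It read 2.67 and 2.68 in the controls against 3.06 and 3.03 in the knockouts, so that the groups did not overlap and each pair of replicates agreed within 0.03. In the fit without the filter the difference was 0.37 or 1.29-fold (SE 0.11, 95% interval 0.08 to 0.66), with an unadjusted p of 0.0213 and a limma adjusted p of 0.418 over 22180 genes. It was the 1 member of 10 with an unadjusted p under 0.05, in a fit where 2125 of the 22180 genes had one. The difference stayed positive in all 10 refits (0.34 to 0.38). All 4 values lay at or below 3.06, near the median of all row means (3.02).

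Mmp23 (NCBI gene 26561), an MMP without the hemopexin domain that is released from the membrane by cleavage, read 4.35 and 4.73 in the controls against 4.88 and 3.82 in the knockouts. The knockout arrays lay on either side of both controls. The difference was -0.19 (SE 0.39, 95% interval -1.21 to 0.83; limma, adjusted p = 0.884), and 0.34 without knockout replicate 2.

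**Figure D2:**
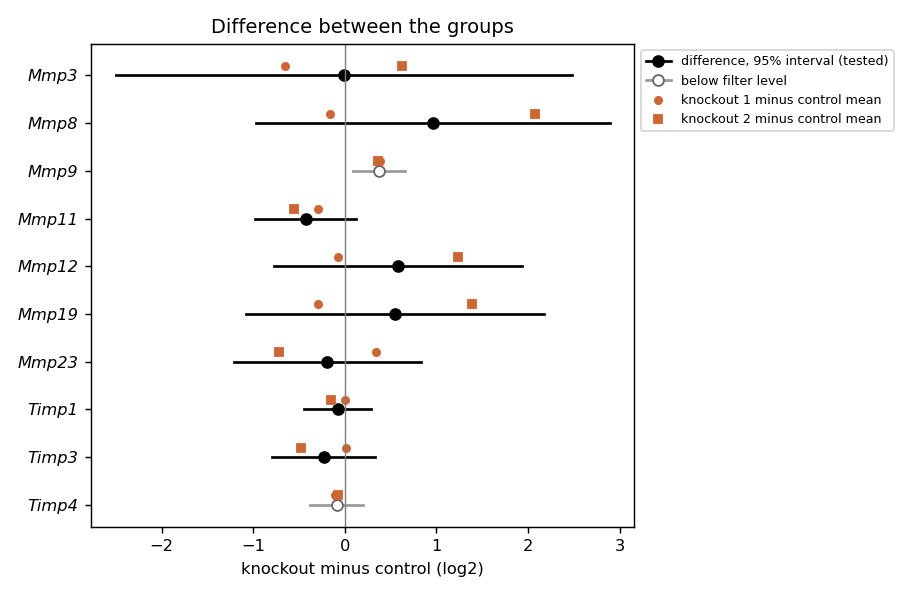
Difference between knockout and control means on the log2 scale with its 95% interval from limma (black, tested genes; open circles, genes below the filter level), and each knockout array minus the control mean in orange. For Mmp3, Mmp8, Mmp12, Mmp19, Mmp23 and Timp3 the 2 knockout arrays lay on opposite sides of the control mean.

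The inhibitor Timp1 (NCBI gene 21857), which blocks most secreted MMPs but is weak against MT1-MMP, was steady in all 4 arrays. It read 11.08 and 11.08 in the controls against 11.07 and 10.93 in the knockouts. Although the groups did not overlap, knockout array 1 was less than 0.01 below the lower control. The difference of -0.08 (SE 0.14, 95% interval -0.44 to 0.29; limma, adjusted p = 0.870) has an interval that runs from 0.736-fold to 1.22-fold, the narrowest among the 8 tested members.

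Timp3 (NCBI gene 21859), which binds to the matrix and also inhibits membrane-type MMPs and several ADAM proteases, read 10.84 and 10.62 in the controls against 10.74 and 10.25 in the knockouts. Knockout array 2 was the lowest and knockout array 1 lay between the controls. The difference was -0.23 (SE 0.22, 95% interval -0.80 to 0.33; limma, adjusted p = 0.727), and 0.01 without knockout replicate 2. Timp4 (NCBI gene 110595) was dim throughout, at 2.32 and 2.33 in the controls against 2.22 and 2.25 in the knockouts. Its groups did not overlap, but the difference was only -0.09 (SE 0.11, 95% interval -0.38 to 0.20; limma without the filter, adjusted p = 0.859). In the RefSeq gene table each of these genes lies within the span of a synapsin gene, Timp1 in Syn1, Timp3 in Syn3 and Timp4 in Syn2. Syn1 read 4.59 and 3.81 in the controls against 4.06 and 3.69 in the knockouts, and the other 2 synapsin genes were below the filter level.

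In all, 4 of 10 members had groups that did not overlap, Mmp9 higher and Mmp11, Timp1 and Timp4 lower in the knockouts. Over all tested genes that share was 44.3%, 16.7% higher and 27.5% lower. Mmp9 and Timp4 were not among the tested genes. Without them, 0 of 8 members were apart with the knockouts higher and 2 with the knockouts lower. Neither count, taken over both directions, was above the share of all tested genes. Of the 8 tested members 0 had an unadjusted p under 0.05. The median difference over all 10 members was -0.04, beside -0.05 over all tested genes.

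**Figure D3:**
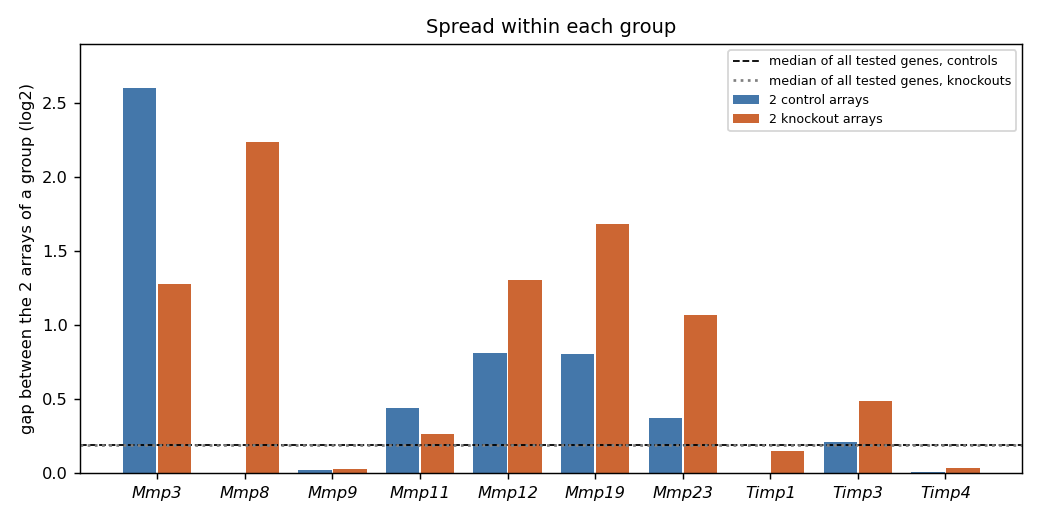
Gap between the 2 arrays of each group for every gene, on the log2 scale, in bars from 0, with the medians of all tested genes as lines. Mmp3 in the controls and Mmp8, Mmp19 and Mmp12 in the knockouts stood far above the medians of 0.190 and 0.189, and Timp1, Timp4 and Mmp9 lay below them.

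The spread within groups was wider for several members than for most genes. The median gap between the knockout arrays was 0.778 over the 10 members and 0.189 over all tested genes, and between the control arrays it was 0.291 and 0.190. In the knockouts the gap was exceeded by 0.717% of tested genes for Mmp19, by 1.59% for Mmp12, by 1.72% for Mmp3 and by 2.78% for Mmp23. At the other end, 99.4% of tested genes had a wider gap between the controls than Timp1. Knockout array 2 was the highest of the 4 arrays for Mmp8, Mmp12 and Mmp19 and the lowest for Mmp11, Mmp23, Timp1 and Timp3, which makes it an extreme for 7 of 10 members, beside 53.0% of all tested genes. Without it the sign of 5 of the 10 differences turned, for Timp3 only to 0.01 and for Mmp12 only to -0.07. The share of all tested genes that turned was not derived, so this count has no background beside it.

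The chromosome 9 cluster gave a closer view of this spread, and its genes were grouped after their values were seen. RefSeq lists 10 Mmp genes there, in the order Mmp13, Mmp12, Mmp1b, Mmp3, Mmp1a, Mmp10, Mmp8, Mmp27, Mmp20 and Mmp7. Of these, 6 were tested. All 6 read higher in knockout array 2 than in knockout array 1, by 0.06 for Mmp20, which encodes the enamel protease enamelysin, and by 0.78 to 2.24 for the other 5. Among all tested genes 52.9% were higher in that array, and 4.83% by at least 0.7. Of the cluster genes below the filter level, Mmp1a, Mmp27 and Mmp7 were lower in that array by 0.25, 0.11 and 0.13, and Mmp1b was higher by 0.04. In the controls Mmp13, Mmp12, Mmp3 and Mmp10 were higher in array 2 by 0.48 to 2.60, while Mmp8 and Mmp20 differed by less than 0.03. Of all tested genes, 9.65% were higher in control array 2 by at least 0.4. The order is not particular to the cluster: Mmp19, on chromosome 10, was higher in array 2 by 0.80 in the controls and 1.69 in the knockouts.

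Between the groups the neighbours did not go one way. Mmp13, the interstitial collagenase of rodents, read 8.28 and 9.07 in the controls, and the knockouts 6.83 and 8.13, a shift of -1.20 (SE 0.51; limma, adjusted p = 0.469). Its neighbour Mmp12 differed by 0.58, with overlapping groups. Mmp10, stromelysin-2, differed by -0.34 (SE 0.33), and its groups overlapped. None of these differences passed the test, and the differences between genes were not tested.

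**Figure D4:**
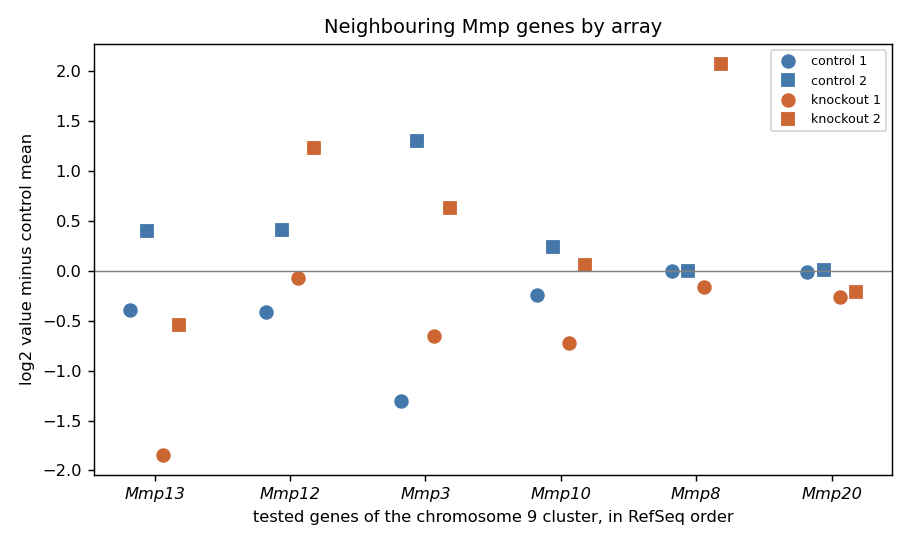
Log2 value of the 6 tested genes of the chromosome 9 cluster in each array, minus that gene's control mean. Squares (the arrays numbered 2) lie above circles (those numbered 1) for Mmp13, Mmp12, Mmp3 and Mmp10 in both groups, and Mmp8 stands out in knockout array 2.

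The other MMPs with Timp2 had 2 of 9 tested genes higher and 7 lower, 0 of them called in either direction, with a median difference of -0.34. The groups did not overlap for 5 of the 9, all lower in the knockouts, beside 27.5% of all tested genes. The 5 include Mmp14, which the knockout targets, so its place among them follows from the design. They also include Mmp20, near the filter level at 3.22 and 3.25 in the controls against 2.97 and 3.03 in the knockouts. Beside Mmp13 and the targeted Mmp14 (-0.65, SE 0.17), the membrane-type Mmp16 read 4.71 and 5.13 in the controls against 3.25 and 3.10 in the knockouts (limma, adjusted p = 0.149). Timp2, the inhibitor that helps MT1-MMP to activate proMMP-2, read 9.90 and 9.94 against 9.56 and 9.54.

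Of other inhibitors and cell-surface partners, 3 of 8 tested genes were higher and 5 lower, with 0 called and a median of -0.10. Reck, a membrane-anchored inhibitor of several MMPs, read 6.87 and 7.42 in the controls against 6.08 and 5.84 in the knockouts (limma, adjusted p = 0.243). Sdc1, the heparan sulfate proteoglycan syndecan-1, read 6.99 and 7.45 against 7.94 and 7.93. Lcn2, which encodes a lipocalin that binds MMP-9, was below the filter level, like Mmp9.

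Of the proteases that activate proMMPs, with their receptors and inhibitors, 6 of 11 tested genes were higher and 5 lower, with 0 called and a median of 0.09. The lysosomal cathepsin genes Ctss (0.67, SE 0.17) and Ctsb (0.53, SE 0.14) were higher in both knockout arrays, and Plaur, the urokinase receptor, lower in both (-0.63, SE 0.20). Serpinb2, an inhibitor of urokinase, read 7.77 and 6.10 in the controls against 4.14 and 7.26 in the knockouts, a spread within the knockouts even wider than that of Mmp8. It was named after its values were seen.

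Of the inducers of MMP transcription 10 of 13 tested genes were higher and 3 lower, with 0 called and a median of 0.20. Spi1, the myeloid transcription factor PU.1, read 5.08 and 5.53 in the controls against 5.89 and 6.44 in the knockouts. Tnf, an inflammatory cytokine, read 4.81 and 4.04 against 5.02 and 5.20, and Egr1, an early response transcription factor, 7.23 and 7.23 against 6.29 and 6.57. The AP-1 genes Fos (0.03, SE 0.13) and Junb (0.03, SE 0.18) differed by little, and Jun read 6.07 and 5.80 against 6.06 and 6.92, with its highest value in knockout array 2. Il1a, the gene of interleukin-1 alpha, was below the filter level and read 2.28, 2.45 and 2.40 in 3 arrays and 4.50 in knockout array 2, the array in which Mmp8 was also high. Il6, a cytokine gene of the same list, read 8.37 and 7.20 in the controls against 8.87 and 7.74 in the knockouts. Il1b, below the filter level, read 2.74 to 2.86 in all 4 arrays. Fos, Junb, Jun, Il1a, Il6 and Il1b were named after their values were seen, and their part in the members' values was not tested.

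**Figure D5:**
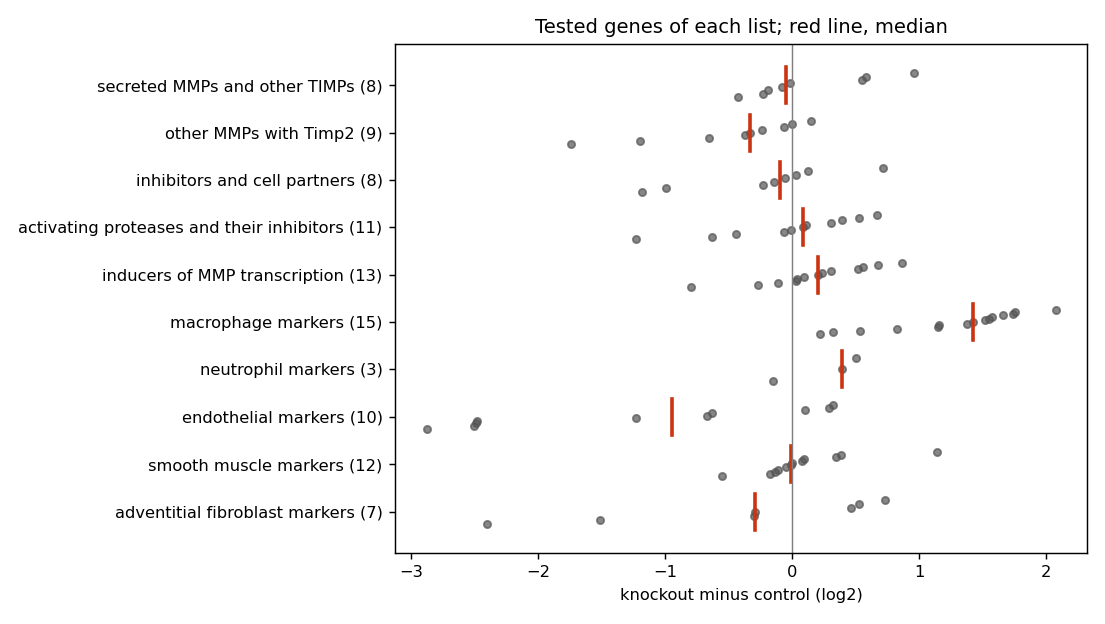
Difference between knockout and control for each tested gene of a list (points) and the list's median (red line), with the number tested in brackets. The secreted MMPs and TIMPs centre on -0.04, the macrophage markers on 1.42 and the endothelial markers on -0.95.

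Markers of further cell types were read in the same arrays. Endothelial markers had 3 of 10 tested genes higher and 7 lower, with summed log2 values of 61.8 and 57.5 in the controls against 46.6 and 47.6 in the knockouts. Smooth muscle markers had 5 of 12 higher, with sums of 83.2 and 81.3 in the controls against 86.1 and 80.4 in the knockouts. Adventitial fibroblast markers had 3 of 7 tested genes higher and a median of -0.29, with sums of 50.1 and 51.8 against 48.2 and 48.3. Cd34 (-2.40, SE 0.51) and Dpt (-1.51, SE 0.46) were lower in both knockout arrays without passing the test. Serpinf1 (0.52, SE 0.18) was higher in both, and Lum (0.74, SE 0.64) and Dcn (0.46, SE 0.36) had higher means with overlapping groups. Pi16 and Clec3b were below the filter level. All 7 mast cell markers were below the filter level, with sums of 16.3 and 16.4 against 16.8 and 16.4. The part of these cell types in the members' values was not tested.

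The genes most like a member were sought for Mmp11, Mmp9 and Timp4, the 3 with the largest differences among those without overlap, by the root mean square distance over the 4 arrays after each gene's mean was subtracted. The closest of 11296 genes were Slc18b1, Nfkbiz and Smo for Mmp11 (0.015 to 0.030 log2 units), Eef2kmt, Ostf1 and Tmem121 for Mmp9 (0.020 to 0.021) and Atf5, Tmcc1 and Cd164 for Timp4 (0.0045 to 0.0088). The likeness rests on 4 arrays and is a description.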

How the data were processed

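Total RNA, with 10 ng taken into whole-transcriptome amplification, was measured on Mouse Gene ST 2.1 strips, per the labels' protocols and the series' design text. The deposited values are log2 expression, background-corrected, normalised and summarised by RMA per the submitters' processing notes. Their range (1.17 to 12.4) gave the log base. Software version, probe definitions and genome build: not given in the sources used here. RMA makes arrays comparable gene by gene, compresses differences of dim genes and does not allow levels of different genes to be compared.

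Of 41345 rows, 23521 had 1 symbol, 1814 several and 16010 none in the platform annotation. NCBI gene numbers matched RefSeq (GRCm38.p6) for 23328 rows. No row with several symbols held a member. Knockout minus control was fitted in limma 3.58.1 (R 4.3.3) with lmFit and eBayes, without covariates, with Benjamini-Hochberg adjustment over all genes tested, and called at an adjusted p under 0.05. On simulated data of 12550 genes for this comparison the fit called 4 of 50 genes changed by 1 log2 unit and 41 of 50 changed by 2, with 9 false calls. The simulation also held 50 genes changed by 3 and 50 by 4 units. The adjustment depends on how many genes change and by how much, so these rates need not hold here. In the arrays themselves Ptprb, an endothelial marker, differed by -2.88 and was not called (limma, adjusted p = 0.104). The number of arrays limits the precision. The design text speaks of separate pairs of mice, so the spread includes mouse, culture and hybridisation. Figures were drawn with matplotlib 3.10.9.

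The members and lists were chosen with earlier results of these data known, and the lists were described by counts and medians without a test. The rule names all 10 members, Mmp14, and per pathway list, but not for the cell type markers, up to 4 genes without overlap and with a difference of at least 0.5. Other genes named were chosen after their values were seen. Alternatives were a replicate block, no or a stricter filter (75th percentile), quantile normalisation, median centring, averaging a gene's rows, trended robust eBayes and leaving out each array, where a lone array took its spread from the opposite group.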

Additional observations from a re-analysis of the deposited data

How the results depend on the processing

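Limma called 0 genes at an adjusted p under 0.05 with all 4 arrays and under each of 11 alternatives, with 929 to 2125 genes at an unadjusted p under 0.05. The smallest adjusted p of a member over 106 refits was 0.0895 (Mmp8, without knockout replicate 1), and 98 refits kept the member's direction. The other 8 reversed it. Without knockout replicate 2 these were Mmp8 (-0.16), Mmp12 (-0.074), Mmp19 (-0.29), Mmp23 (0.34) and Timp3 (0.011), and without knockout replicate 1 the same genes gave 2.08, 1.23, 1.39, -0.72 and -0.48, the other end of their range. Mmp3 reversed with a second quantile normalisation (0.018), and leaving out single arrays moved it from -1.32 to 1.29, with 0.63 without knockout replicate 1. The cause was not tested. The members whose groups did not overlap numbered 4, 3 after quantile normalisation, 4 after median centring and 4 with the mean of all rows. An alternative chosen after seeing the data left out each array in turn and gave 5 to 9 members, beside 70.9% to 73.5% of tested genes, since 1 array against 2 overlaps less often by construction. With the title number as a replicate block 0 genes were called (1527 at an unadjusted p under 0.05), and no member changed its call. The SE fell from 0.95 to 0.34 for Mmp3, 0.52 to 0.20 for Mmp12 and 0.62 to 0.26 for Mmp19. It fell less for Mmp8, Mmp23 and Timp3 and rose for Mmp9, Mmp11, Timp1 and Timp4. Between arrays of 1 number, knockout minus control was 0.33 and 0.83 for Mmp12, 0.11 and 0.99 for Mmp19, and -0.16 and 2.08 for Mmp8. The numbers do not pair the arrays by the labels, and the gap between arrays 2 and 1 correlated across genes by 0.045 between the groups. The stricter filter left out Mmp8, Mmp9, Mmp23 and Timp4. No background level was derived here, which limits what can be said of Mmp9 and Timp4, both below the filter level.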
